A study of Mus musculus with 2 samples.

Results

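The contractile apparatus of myofibroblasts was followed through 10 genes in the stroma of a mouse ovarian cancer model, namely Acta2, Tagln, Cnn1, Cnn2, Tpm1, Tpm2, Myl9, Mylk, Actn1 and Flna. They were taken by gene symbol and make up 10 of the 32285 genes counted. They were selected on these data, since a lower level of Acta2 with the Activin A antibody was already known from the same 2 libraries, and the question was whether the other 9 genes shared it. All values between the libraries are therefore a description, with no test.

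Female C57BL/6 mice, 6 to 8 weeks old, had their peritoneal wall abraded by surgery and were injected i.p. with syngeneic ovarian cancer cells of the genotype p53-/-, Myc, Hras, which the mice of both groups carried. From the next day they received control IgG or a neutralizing antibody against the βA subunit of Activin A. By the labels, 7 control IgG mice and 8 antibody mice were treated for 10 days. The group sizes match an experiment of the study on tumor burden, while its single-cell experiment is described with other numbers of mice and days, and from which of them the libraries came was not settled. Tumor pieces from the abraded wall were pooled over the mice of a group and dissociated without selection of cell types, and 1 single-cell library was made per group. With 1 library per group, the antibody cannot be told apart from any difference in tissue sampling, handling or sequencing, and the intervals given below cover counting error only. They are too narrow, because the UMIs (unique molecular identifiers, each marking 1 captured transcript) of a gene lie in few cells.

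Myofibroblasts are fibroblasts that pull on the matrix around them through stress fibers, bundles of actin and myosin anchored at adhesion plaques. Their hallmark is smooth muscle α-actin, the product of Acta2, and they appear in healing wounds and in the stroma of solid tumors, where fibroblasts are called cancer-associated fibroblasts (CAFs). Many contractile genes are under the control of serum response factor, which binds a short sequence known as the CArG box, together with myocardin-related coactivators, and ligands of the TGFβ family, to which Activin A belongs, are known to raise them through SMAD proteins.

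In total, 98174850 UMIs were counted with control IgG and 74117462 with the antibody, and 8770 and 6386 cells were kept within the study's ranges for genes, UMIs and mitochondrial reads. Fibroblasts were gated by the summed UMIs of 9 marker genes, such as Col1a1, Dcn and Pdgfra, in cells below the gates of the other classes. None of the 10 contractile genes was used for the gate. This gave 197 fibroblasts with control IgG and 220 with the antibody, holding 3657950 and 3048688 UMIs. All 9 fibroblast markers were detected in both libraries, with summed levels of 36026 and 39762 counts per 1000000 UMIs (CPM), and the defining markers of pericytes and smooth muscle had a summed level over the list of 103 and 78.1 CPM, with Higd1b at 0 in both. The fibroblasts also carried mesothelial markers, all 9 of them detected, at 366 and 315 CPM, and only 42 and 69 fibroblasts had no UMI of any other stromal list. Median depth was 15545 and 9488 UMIs per fibroblast. Only 2 and 5 of the fibroblasts lay between the gate of 40 marker UMIs per 10000 and 80. The libraries shared 19 barcodes among kept cells and 0 among fibroblasts.

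The sequence just before the start site was examined because contractile genes are known targets of serum response factor, and the windows are shown so that the genes at the centre of the comparison can be seen beside their values. RefSeq windows of 250 bases before the start (GRCm38.p6) were found for 9 of the 10 genes, and Tagln had no entry. A CArG box, written as the field does and read on both strands, was present in 2 of the 9 windows (Cnn2 and Myl9) and in 1.47% of all 32851 windows of the same length. A near match, with 1 G or C among the 6 inner bases, was found in 2 of the 9 (Acta2 and Myl9) and in 7.24% of all windows. The word CATTCC, the core of the MCAT element bound by TEAD factors, was found on either strand in 4 of the 9 (Acta2, Tpm1, Mylk and Flna) and in 12.6% of all windows. By GENCODE, the RefSeq start lay 39740 bases inside the annotated gene for Mylk, 3286 for Flna, 211 for Tpm2 and 193 for Tpm1. The windows of these genes, with their matches, therefore lie wholly or mostly within the annotated gene. The near matches of Acta2 are shown with 10 bases on each side, since GENCODE places an exon over most of its window. The others are shown up to the start of the annotated gene, with CArG boxes and near matches in capitals. The Cnn1 window had no match of any kind and is shown for contrast, because Cnn1 had the lowest ratio of the 10 genes.
Acta2, chr19:34255438-34255467, minus strand: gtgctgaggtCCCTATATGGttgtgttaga
Acta2, chr19:34255388-34255417, minus strand: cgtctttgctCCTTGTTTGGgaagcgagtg
Cnn2, chr10:79988350-79988583, plus strand: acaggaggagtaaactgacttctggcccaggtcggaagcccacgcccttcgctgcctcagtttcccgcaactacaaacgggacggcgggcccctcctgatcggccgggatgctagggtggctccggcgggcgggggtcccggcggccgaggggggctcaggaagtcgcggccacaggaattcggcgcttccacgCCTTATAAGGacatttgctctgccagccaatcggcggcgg
Myl9, chr2:156775214-156775419, plus strand: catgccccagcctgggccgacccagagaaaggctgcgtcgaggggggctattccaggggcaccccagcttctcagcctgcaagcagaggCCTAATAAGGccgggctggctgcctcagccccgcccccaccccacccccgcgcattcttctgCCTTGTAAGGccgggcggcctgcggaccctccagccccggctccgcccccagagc
Cnn1, chr9:22099003-22099215, plus strand: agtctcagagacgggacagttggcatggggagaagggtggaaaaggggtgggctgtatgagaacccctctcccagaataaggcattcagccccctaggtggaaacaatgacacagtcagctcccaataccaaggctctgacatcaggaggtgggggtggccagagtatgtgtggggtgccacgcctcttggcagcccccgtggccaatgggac
A match is a description of these letters, and the lack of one says only that the letters are not in this window.

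In fibroblasts, the summed level of the 10 genes was 3477 CPM with control IgG (95% exact Poisson interval 3417 to 3538) and 1199.9 CPM with the antibody (1161 to 1239). Acta2 and Tagln made up 54.2% of those UMIs with control IgG and 23.9% with the antibody. Values given in pairs are for control IgG and then the antibody. In sums of this kind, fewer contractile cells and less contractile RNA per cell cannot be told apart. Of the 10 genes, 9 were below the control IgG level and 5 were at least 2-fold lower (Acta2, Tagln, Cnn1, Cnn2 and Tpm2), while only Mylk was above it. Their median log2 ratio of antibody over control IgG was -1.01. Over all 9832 genes with at least 50 UMIs in fibroblasts the median was 0.03, with 1.6% at least 2-fold lower and 1.93% at least 2-fold higher. Nothing is read from that background, because the genes were chosen with the lower level of Acta2 known.

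**Figure D1:**
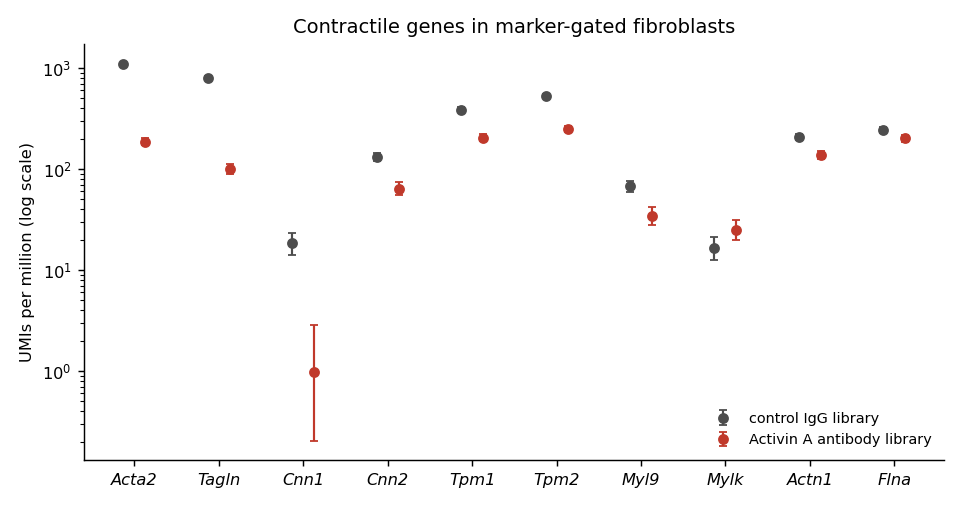
Level of each gene in marker-gated fibroblasts, in CPM on a log axis (UMIs per 1000000), for the control IgG library (grey) and the Activin A antibody library (red). Points are summed UMIs over 197 and 220 cells, and bars are exact Poisson 95% intervals. The pairs are far apart for Acta2, Tagln and Cnn1, close for Flna, and in the opposite order for Mylk.

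Acta2 (chromosome 19, 34241090 to 34255590, GRCm38) encodes the α-actin that stress fibers of myofibroblasts contain. It was at 1086 CPM (1053 to 1120, 3973 UMIs) with control IgG and at 187 CPM (172 to 203, 569 UMIs) with the antibody. The log2 ratio was -2.54 (-2.67 to -2.41). A lower ratio was found for 15 of the 9832 genes, from which nothing is read, since the lower level of Acta2 was known when the genes were chosen. Its UMIs were unevenly spread, as the 10 fibroblasts with most Acta2 held 54.3% of them with control IgG and 67% with the antibody.

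The proteins that bind the thin filament differed among themselves. Tagln (chromosome 9, 45929619 to 45936058), which encodes the actin-bundling protein transgelin or SM22α, was at 800 CPM (771 to 829, 2926 UMIs) and 101 CPM (89.7 to 113, 307 UMIs), a log2 ratio of -2.99 (-3.16 to -2.82). That ratio was lower than the one of Acta2, but the counting intervals cannot order the genes, since 10 antibody fibroblasts held 84.7% of the Tagln UMIs. Cnn1 (chromosome 9, 22099216 to 22109630), the calponin of smooth muscle, which slows the myosin ATPase, gave 67 UMIs (18.3 CPM) with control IgG and 3 UMIs (0.98 CPM) with the antibody. The ratio was -4.22 on the log2 scale with a counting interval from -6.53 to -2.61. All 3 antibody UMIs came from a single cell and 79.1% of the control IgG UMIs from 10 cells. No gene of the 9832 ranked lower, but the ranking counted 0 UMIs as 3, so nothing is read from it.

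Cnn2 (chromosome 10, 79988584 to 79996062), a calponin that non-muscle cells also use, was at 132 CPM (121 to 145) with control IgG and 64.0 CPM (55.3 to 73.6) with the antibody, with a ratio of -1.05 (-1.30 to -0.81). The tropomyosins, which lie along the actin filament and set which proteins may bind it, stood nearer to the control IgG level than Acta2 did. Tpm2 (chromosome 4, 43514711 to 43523765) was at 523 CPM (499.5 to 547) with control IgG and 248 CPM (230 to 266) with the antibody, with a ratio of -1.08 (-1.20 to -0.96). Tpm1 (chromosome 9, 67022590 to 67049406) was at 385 CPM (365 to 406) with control IgG and 203 CPM (188 to 220) with the antibody, with a ratio of -0.92 (-1.06 to -0.78). The intervals of Cnn2, Tpm2 and Tpm1 overlap, so no order is read among them. In free RNA, taken from barcodes with few UMIs, Tpm1 was at 257 CPM and 312 CPM and Tpm2 at 188 CPM and 197 CPM, the Tpm1 level with the antibody being above that in fibroblasts.

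Myl9 and Mylk encode the motor side of contraction, the regulatory light chain of myosin and the kinase that phosphorylates it. Myl9 (chromosome 2, 156775420 to 156781658) was at 67.8 CPM (59.6 to 76.8, 248 UMIs) and 34.4 CPM (28.2 to 41.7, 105 UMIs), a log2 ratio of -0.98 (-1.32 to -0.64). That ratio rested on a few cells: 10 control IgG fibroblasts held 65.3% of its UMIs, and the ratio was 0.02 as a mean over cells and 0.02 with the top 5% of contractile cells of each library left out. Mylk (chromosome 16, 34745210 to 35002420) was at 16.4 CPM (12.5 to 21.1, 60 UMIs) and 24.9 CPM (19.6 to 31.2, 76 UMIs), a log2 ratio of 0.60 (0.10 to 1.12). The kinase was thus the single member above the control IgG level, on few UMIs.

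The cross-linkers join actin filaments to each other. Actn1 (chromosome 12, 80167547 to 80260371), the α-actinin of stress fibers and adhesion plaques, was at 207 CPM (193 to 223) with control IgG and 137 CPM (124 to 151) with the antibody, with a ratio of -0.60 (-0.78 to -0.42). Flna (chromosome X, 74223461 to 74249820), filamin A, which links crossing filaments and ties them to the membrane, was at 241 CPM (225 to 258) with control IgG and 200.4 CPM (185 to 217) with the antibody, with a ratio of -0.27 (-0.42 to -0.12). Among the genes below the control IgG level the ratio thus ran from Flna to Cnn1, and of the other 9 genes Tagln and Cnn1 alone had ratios as low as that of Acta2. The 2-fold limit cut through a dense stretch of the list, with Cnn2 (-1.05) and Tpm2 (-1.08) just inside it and Myl9 (-0.98) and Tpm1 (-0.92) just outside.

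When the cells of both libraries were clustered with the 10 genes left out, all but 3 fibroblasts lay in 2 of the 14 clusters. Cluster A, led by Slpi, Wnt4, Tmem108, Gatm and Ncam1, also held mesothelial-like cells. Cluster B was led by Clec3b, Pi16, Myoc, Lama2 and Opcml. Cluster A made up 88 of 197 fibroblasts (44.7%, Clopper-Pearson 37.6 to 51.9) with control IgG and 52 of 220 (23.6%, 18.2 to 29.8) with the antibody, and its cells were deeper, with median UMI counts of 26366 and 27832 against 8598 and 7223 in cluster B. The clusters carried very unequal amounts of contractile RNA: the summed level of the 10 genes was 4883 CPM in cluster A and 366 CPM in cluster B with control IgG. Mesothelial markers summed to 514 CPM and 578 CPM in cluster A, with all 9 detected, and to 32.8 CPM and 30.3 CPM in cluster B, with Msln, Lrrn4 and Krt8 at 0. The share of cells and the level within a cluster could therefore both enter the values over all fibroblasts, and the comparison was repeated within each cluster.

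Within cluster A, all 10 genes were below the control IgG level and 6 were at least 2-fold lower, beside 1.79% of the 8049 genes measured there. The median log2 ratio was -1.20 for the 10 genes and 0.01 for all genes. Acta2 was at 1577 CPM with control IgG and 343 CPM with the antibody (log2 ratio -2.20, -2.33 to -2.07), and Tagln at 1157 CPM and 180 CPM (-2.69, -2.87 to -2.51). Myl9 and Mylk, at -0.98 and 0.60 over all fibroblasts, were at least 2-fold lower here. Myl9 was at 88.2 CPM (222 UMIs) and 21.8 CPM (34 UMIs), a log2 ratio of -2.02 (-2.58 to -1.49). Mylk was at 16.3 CPM (41 UMIs) and 6.40 CPM (10 UMIs), a log2 ratio of -1.35 (-2.51 to -0.33). That ratio was -0.08 over all cells of the cluster without the marker gate. With cells thinned to 3000 UMIs, 4 of 88 control IgG cells and 0 of 52 antibody cells had a Mylk UMI, so no ratio is read. Cnn1 (-3.79) and Cnn2 (-1.05) completed the 6, although Cnn2 was short of 2-fold in several alternatives, such as -0.72 as a mean over cells and -0.42 with thinned cells, while Tpm1 (-0.83), Tpm2 (-0.79), Actn1 (-0.39) and Flna (-0.25) were nearer to 0. Pericyte and smooth muscle, endothelial and skeletal muscle markers were lower in the same cells, while the mesothelial list was not, at 514 CPM and 578 CPM. The pericyte and smooth muscle list summed to 128 CPM and 65.3 CPM (9 and 6 of 10 markers with a UMI, Higd1b at 0), of which Des held 89.8 CPM and 49.3 CPM, the endothelial list to 35.0 CPM and 17.3 CPM (4 and 3 of 8, with Emcn, Lyve1, Mmrn1 and Ccl21a at 0) and the skeletal muscle list to 106 CPM and 63.4 CPM (6 and 6 of 8, with Myh4 and Myh1 at 0). Des is counted in the skeletal muscle list too. The part of these lists in the result was not tested.

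Cluster B gave the opposite direction for the 7 genes with at least 50 UMIs there. All 7 were above the control IgG level, though the intervals of Cnn2 (0.22), Tpm1 (0.10) and Flna (0.26) include 0, with a median log2 ratio of 0.72 against 0.01 for all 6760 genes measured, and 3 were at least 2-fold higher, beside 1.38% of all genes. Mylk was at 16.9 CPM (19 UMIs) and 45.5 CPM (66 UMIs), a log2 ratio of 1.43 (0.68 to 2.25). Tpm2 was at 18.6 CPM (21 UMIs) and 49.0 CPM (71 UMIs), a log2 ratio of 1.39 (0.67 to 2.17). That ratio was 0.53 without the top 5% of contractile cells, 3.10 with free RNA subtracted and -0.03 in a single random draw of 3000 UMIs per cell. The draw found Tpm2 in 8.82% of control IgG cells and 8.33% of antibody cells, against expected shares over all draws of 5.04% and 7.71%. Myl9 was at 23.1 CPM (26 UMIs) and 47.6 CPM (69 UMIs), a log2 ratio of 1.04 (0.37 to 1.75). The Tpm2 levels are small beside those of cluster A, at 748 CPM and 432 CPM. In cluster A, Mylk was at 16.3 CPM and 6.40 CPM and Myl9 at 88.2 CPM and 21.8 CPM. With the antibody, Mylk and Myl9 were thus higher in cluster B than in cluster A. In cluster B, 10 cells held 69.7% of the Mylk UMIs and 66.2% of the Tpm2 UMIs with the antibody. Pericyte and smooth muscle, endothelial and skeletal muscle markers had the same direction here as the 7 genes, while the mesothelial list did not, at 32.8 CPM and 30.3 CPM. The pericyte and smooth muscle list summed to 46.2 CPM and 92.4 CPM (6 and 8 of 10 markers with a UMI, Higd1b and Lmod1 at 0), the endothelial list to 20.4 CPM and 31.0 CPM (3 and 4 of 8, with Cdh5, Emcn and Mmrn1 at 0) and the skeletal muscle list to 36.4 CPM and 54.5 CPM (6 and 7 of 8, with Myh1 at 0), and their part was not tested.

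The smooth muscle genes themselves were nearly absent from cluster B. Acta2 gave 4 UMIs in 3 of 108 cells with control IgG and 30 UMIs in 9 of 166 cells with the antibody, and Tagln gave 13 UMIs in 3 cells and 26 UMIs in 3 cells. Cnn1 had 0 UMIs in both libraries, which allows up to 3.27 CPM and 2.54 CPM by the exact Poisson interval. The direction for Acta2 and Tagln in this cluster depended on the gate, since over all cells of cluster B without the marker gate Acta2 was at 27.7 CPM and 18.9 CPM and Tagln at 18.9 CPM and 16.1 CPM. The ratio of Mylk above 0 over all fibroblasts was thus found again in cluster B and not in cluster A.

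**Figure D2:**
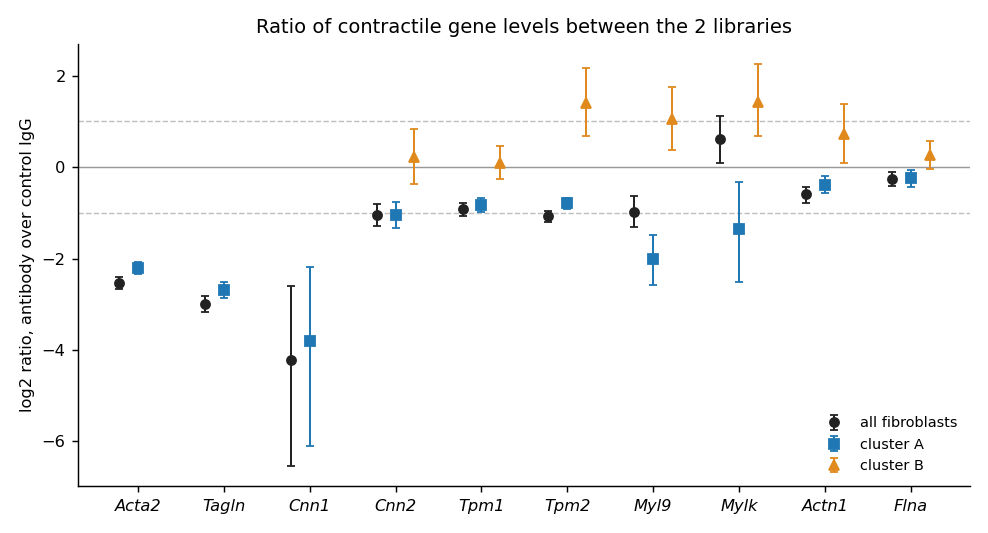
Log2 ratio of antibody over control IgG for each gene in all fibroblasts (black circles), in cluster A (blue squares) and in cluster B (orange triangles), for genes with at least 50 UMIs, with conditional binomial 95% intervals; dashed lines mark 2-fold. Cluster A points lie below 0 for all 10 genes and cluster B points above 0 for the 7 genes drawn, with the widest gap at Myl9 and Mylk.

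The lower sums came with fewer strongly contractile cells. In 40 of 197 control IgG fibroblasts (20.3%, 14.9 to 26.6), Acta2 and Tagln together reached 10 UMIs per 10000, and all 40 were in cluster A. With the antibody 12 of 220 did (5.45%, 2.85 to 9.33), of which 11 were in cluster A. The cut is a point on a continuous range, with 31 and 11 cells between 5 and 20 UMIs per 10000. Within cluster A, the median fibroblast had 8.39 UMIs of Acta2 and Tagln per 10000 with control IgG and 1.39 with the antibody, and the highest had 127 and 44.5. The other 8 genes summed to a median of 16.8 and 12.3 UMIs per 10000 in the same cells. So the per-cell difference, like the sums, was wide for Acta2 and Tagln and narrow for the remaining 8 genes together.

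**Figure D3:**
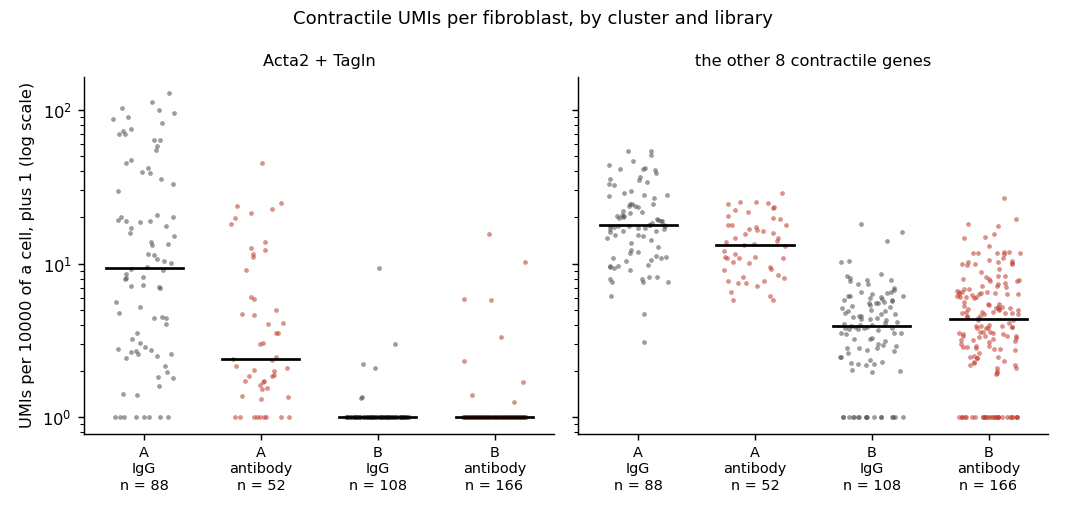
UMIs per 10000 in single fibroblasts, plus 1 and on a log axis, for Acta2 and Tagln together (left) and the other 8 genes (right), by cluster and library, with 1 point per cell and black lines at the median. Control IgG cells of cluster A reach 127 UMIs of Acta2 and Tagln per 10000 against 44.5 with the antibody, and most cluster B cells have no UMI of either gene.

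To compare shares of cells with a UMI at equal depth, 3000 UMIs were drawn from each cell, and 6 control IgG and 10 antibody fibroblasts were too shallow. Acta2 was detected in 31.9% of fibroblasts (25.4 to 39.1) with control IgG and 14.3% (9.85 to 19.8) with the antibody, against 40.1% and 23.2% before thinning. In T cells, which should lack it and had median depths of 4902 and 4240 UMIs, the thinned shares were 0.481% and 0% (0 of 3145, with an exact upper bound of 0.117%), far below the fibroblast shares. Within cluster A the thinned shares of Acta2 were 67% (56.2 to 76.7) and 51.9% (37.6 to 66) in this single draw. The expected shares over all draws were 66.0% and 40.6%. Tagln was detected there in 46.6% (35.9 to 57.5) and 25% (14 to 38.9). Cells that co-detected many members were also fewer: at least 5 of the 10 genes were found in 44.3% of thinned cluster A cells with control IgG (33.7 to 55.3) and 19.2% with the antibody (9.63 to 32.5).

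How the members varied together across single fibroblasts is given per library and not compared, since the antibody cells were shallower and fewer of them lay in cluster A. The median Pearson correlation over the 45 gene pairs was 0.47 over 197 cells with control IgG and 0.11 over 220 cells with the antibody, on log values of counts per 10000. Without Cnn1, whose antibody UMIs lay in 1 cell, it was 0.51 and 0.31 over 36 pairs. The pair Acta2 and Tagln was the closest in both libraries, at 0.86 and 0.75. Mylk stood apart, with correlations between -0.09 and 0.16 with the other 9 genes in the control IgG library and between -0.13 and 0.11 in the antibody library. Mylk had a UMI in only 28 of 197 and 35 of 220 fibroblasts, and the cells of both clusters were pooled. Its low correlations are therefore not read as variation apart from the other genes.

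Outside fibroblasts, the members divided into genes of the smooth muscle program and genes that most cells use. At least 20 cells per library were found in 8 classes (fibroblast, cancer-like, macrophage, monocyte, dendritic, T, NK and B). Among these 8 classes, fibroblasts had the highest level of 8 of the genes in both libraries, the exceptions being Cnn2 and, with the antibody, Tpm1. Some smaller classes were higher still. Mylk was at 53.9 CPM and 170 CPM (4 and 16 UMIs) in endothelial cells, and Tpm2 at 14985 CPM and 14569 CPM in skeletal muscle cells. With the antibody, Actn1 was at 213 CPM (20 UMIs) in endothelial cells. Flna in fibroblasts and monocytes had overlapping intervals with the antibody, as did Cnn1 in fibroblasts and dendritic cells. None of the 7 others among these classes passed 4.34 CPM of Acta2, while the mesothelial-like cells described below did. By contrast, Cnn2 was at 289 CPM and 279 CPM in T cells, above its level in fibroblasts, and Flna was between 57.3 and 187 CPM in all 7 other classes. Over the 16 profiles of class and library, the mean of the 10 genes on log2(CPM + 10) correlated with Myl9 (Pearson 0.96), Acta2 (0.94) and Tagln (0.93) but hardly with Cnn2 (-0.06). The mean contains each gene, so high values are partly built in. Outside fibroblasts, Acta2 and Tagln lay below the added 10 CPM, so their values mainly set fibroblasts apart from the other classes.

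Of the 7 other classes, the cancer-like cells had levels of Tpm1 and Tpm2 closest to those of fibroblasts. Tpm1 was at 276 CPM and 249 CPM and Tpm2 at 172 CPM and 151 CPM. Of 8 members measured in these cells, 7 were below the control IgG level and 1 was at least 2-fold lower, beside 1.11% of all genes there. The median log2 ratio was -0.38 for the 8 members and -0.06 for all genes, with Cnn2 at -0.86, Mylk at -0.84 on 34 and 21 UMIs and Myl9 at -0.57. The gene past 2-fold was Acta2, with 79 UMIs (4.34 CPM) and 19 UMIs (0.94 CPM), a log2 ratio of -2.20 (-3.01 to -1.46) at a level below that of free RNA, which held 23.9 CPM and 13.2 CPM of Acta2. In macrophages 0 of 5 measured members were at least 2-fold lower (1.12% of all genes), with Flna at 133 CPM and 146 CPM. In T cells 0 of 5 were (0.792% of all genes), with Flna at 145 CPM and 148 CPM and Cnn2 at a log2 ratio of -0.05 (-0.10 to -0.01). Acta2 and Tagln had too few UMIs to be among these 5, but were also lower with the antibody. Acta2 gave 34 and 0 UMIs in T cells and 2.65 CPM and 1.05 CPM in macrophages. Tagln gave 19 and 3 UMIs in T cells and 1.54 CPM and 0.35 CPM in macrophages. All these levels were below those of free RNA, and their source was not tested. Cnn2 and Flna, the members most used by these immune cells, thus had ratios between -0.05 and 0.13 there.

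**Figure D4:**
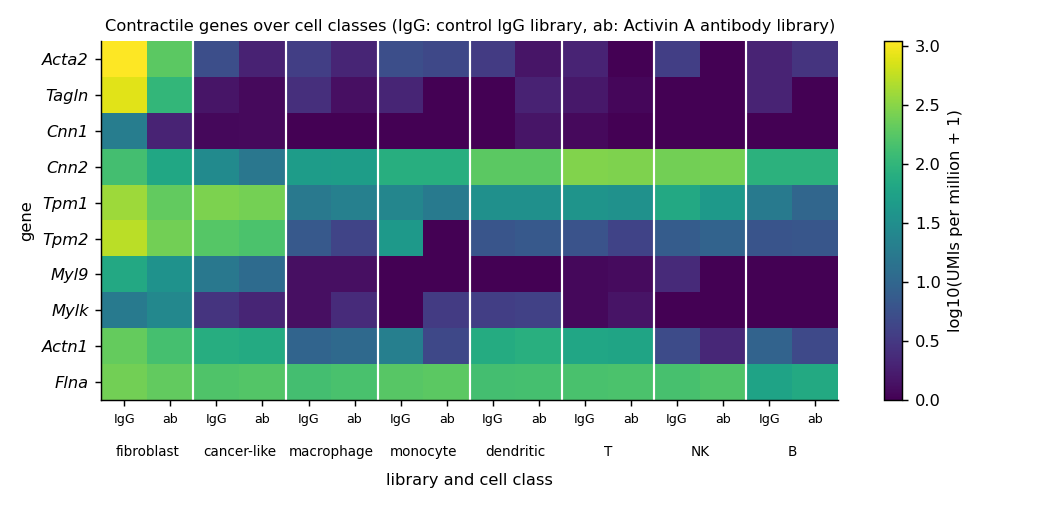
Level of the 10 genes as log10(CPM + 1) in 8 cell classes, with the control IgG library (IgG) and the Activin A antibody library (ab) side by side. Acta2 and Tagln are high in fibroblasts and near 0 elsewhere, and Cnn2 and Flna are spread over the immune classes.

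Mesothelial cells line the peritoneal wall. Mesothelial-like cells numbered 25 with control IgG and 19 with the antibody, the latter below the limit of 20, and are given as values. Acta2 was at 193 CPM (119 UMIs) and 41.7 CPM (26 UMIs), and Tagln at 138 CPM (85 UMIs) with control IgG, against a single UMI with the antibody. Tpm2 was at 359 CPM and 204 CPM, whereas Actn1 was at 162 CPM and 165 CPM. Mylk had 7 and 17 UMIs. Acta2 and Tagln were thus lower with the antibody in these cells too, on few UMIs. In the 9 and 7 skeletal muscle cells, Tpm1 reached 18696 CPM and 22762 CPM with 0 UMIs of Acta2 and Tagln. The summed skeletal muscle markers in fibroblasts were 84.2 CPM and 58.4 CPM. Of these sums, Des held 62.3 CPM and 29.5 CPM, a gene also in the pericyte and smooth muscle list, so the lower sum is not specific to skeletal muscle. The part of muscle RNA in the Tpm1 and Tpm2 values was not tested.

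The remaining contractile machinery was read from lists that take in smooth muscle genes, non-muscle relatives of the members, adhesion plaques, regulators and matrix. Of 26 smooth muscle and filament genes, 18 were measured. Those with too few UMIs for a ratio included Myh11, at 17 and 7 UMIs. Of the 18 measured, 2 were at least 2-fold lower in fibroblasts and 0 higher, with a median log2 ratio of -0.14. They were Csrp1, a LIM protein of the actin cytoskeleton, at 256 CPM and 104 CPM (-1.30), and Des, the intermediate filament protein desmin, at 62.3 CPM and 29.5 CPM (-1.08). Synpo2, an actin-bundling protein, was nearest to 0 at 13.7 CPM and 13.8 CPM. Csrp1 was also lower in cluster A (-1.14) but not in cluster B (-0.02).

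The non-muscle relatives formed the closest comparison, since most of them are paralogs that build such filaments in non-muscle cells. The list also included Flnc, Mylk2 and Mylk3, which are used in muscle. Of 14 measured, 0 were at least 2-fold lower or higher, 11 were below 0 and the median was -0.30. Their ratios ran from -0.67 to 0.18, a range that held 2 of the 10 members, Actn1 and Flna. Tpm3, a further tropomyosin, was nearest to 0 with 733 UMIs (200.4 CPM) and 609 UMIs (199.8 CPM), while Tpm1 and Tpm2 were at -0.92 and -1.08. The paralogs share coding sequence with the members, so a part of the reads of such pairs could be counted to the other gene.

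Of 14 adhesion plaque genes, 1 was at least 2-fold lower (Csrp1, named above), with a median of -0.15, and Lpp was nearest to 0 at 587 CPM and 560 CPM. Of 16 regulators, among them Srf, Mrtfa, Smad3 and receptors of Activin, 0 were at least 2-fold lower or higher, with a median of -0.04, and Rock1, a kinase that drives stress fiber contraction, was nearest to 0 at 113 CPM and 112 CPM. Inhba, which encodes the subunit that the antibody binds, was at 40.2 CPM and 20.7 CPM (-0.96) and was named after its value was seen. Of 19 matrix genes of myofibroblasts, 1 was at least 2-fold lower: Tnc, the wound matrix protein tenascin C, at 333 CPM and 70.9 CPM (-2.23), which was also lower in cluster A (-1.90) and in cluster B (-1.57). Cthrc1, a secreted collagen-related protein, was nearest to 0 at 268 CPM and 271 CPM, and the matrix median was -0.10. All measured genes of the 5 lists lay nearer to 0 than Acta2, Tagln and Cnn1 did.

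**Figure D5:**
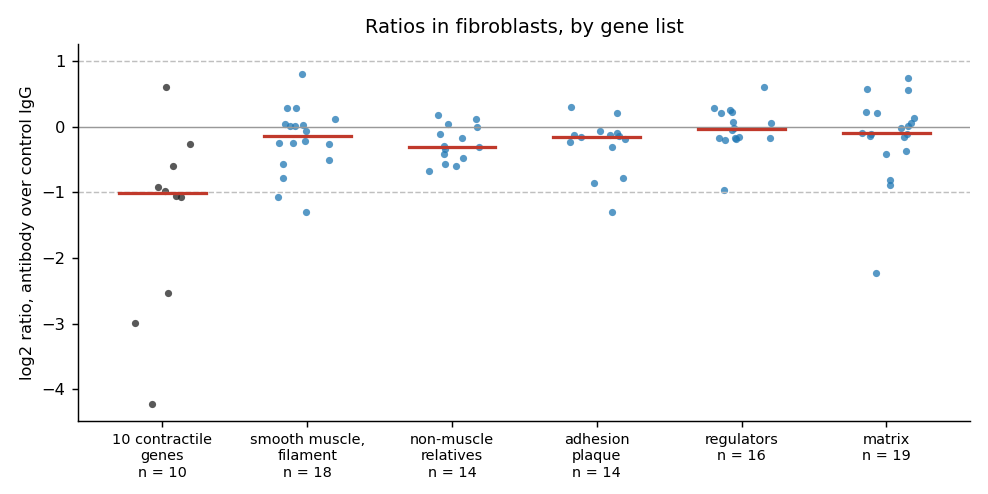
Log2 ratio of antibody over control IgG in fibroblasts for the 10 contractile genes (black) and for 5 lists of related genes (blue), with 1 point per gene with at least 50 UMIs, red lines at list medians and dashed lines at 2-fold. The medians are -1.01 for the 10 genes and between -0.30 and -0.04 for the lists. Csrp1 is in 2 of the lists.

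The genes whose pattern was most like the members' were found by Pearson correlation. Over 417 fibroblasts, the 8 closest to the summed members were Csrp1 (0.70), Ncam1, Gapdh, Pkm, Eno1, Palld, Mical2 and Tmsb4x (0.66). These points share depth and cluster, and all 8 genes had ratios below 0, from -0.43 for Gapdh to -1.30 for Csrp1. Over the 16 profiles, the closest were Reep1 (0.98), Apol9a, Lca5l, Slc6a4, Pcdhb7, Crabp2, Gpr176 and 1700113B09Rik (0.97). Several of those rest on very few UMIs, with 1700113B09Rik at 0.55 CPM and 0.33 CPM in fibroblasts.

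Marker lists of several immune classes were also lower in the fibroblasts of the antibody library, as measured beside the contractile genes. The 7 neutrophil markers summed to 71.1 CPM with control IgG and 6.89 CPM with the antibody, with Retnlg at 0 in both. The 5 T cell markers summed to 54.4 CPM and 24.9 CPM. The 8 dendritic markers, which include H2-Ab1 and Fscn1, summed to 603 CPM and 222 CPM, with 7 and 2 of them having a UMI. Cancer-like cells were at 68.1 CPM and 35.4 CPM for that list, and Cd74 in fibroblasts was at 1326 CPM and 299 CPM. Whether fibroblasts made these transcripts themselves or carried them from immune cells was not tested. From T, B and neutrophil markers, free RNA was estimated at 8.85% of fibroblast UMIs with control IgG and 1.51% with the antibody. In other cells the neutrophil markers ran the other way, at 2.75 CPM and 142 CPM in cancer-like cells and 21.5 CPM and 114 CPM in T cells. Whether the fibroblast estimates reflect a free RNA common to all cells of a library was not tested. With that free RNA subtracted, the median ratio of the 10 genes was -0.98 over all fibroblasts and -1.17 in cluster A, close to the values without it. The part of other transcripts carried by immune cells was not tested.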

How the data were processed

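Single-cell RNA sequencing counts of 2 libraries were analysed, 1 per group, grouped by the sample titles. The authors deposited raw UMI counts for every gene and droplet barcode, neither normalized nor restricted to called cells. The submitters' processing notes name Cell Ranger 7.0.1 and mm10, and the file headers Cell Ranger 4. The labels and the methods name different 10x chemistries. Depth was 98174850 UMIs over 1484815 barcodes (control IgG) and 74117462 over 1316737 (antibody).

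The study's ranges were applied to cells, 1000 to 8500 for genes, 1000 to 100000 for UMIs and up to 10% for mitochondrial UMIs. Classes were gated on summed marker UMIs per 10000 (fibroblasts at 40 or more), with 7 fibroblasts under 80. The 10 genes, the lists and the markers were chosen with earlier results of these data known, and the gate values after the marker levels were seen. Cells left between classes (528 and 397) were not used. Doublets were not removed in the main values. Clusters used 2000 variable genes without the 10 genes, 30 components, 15 neighbours and Leiden resolution 0.5 (scanpy 1.11.5, Python 3.11.15).

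UMIs were summed per class and library and given as CPM, with exact Poisson (levels), Clopper-Pearson (shares) and conditional binomial (log2 ratios) 95% intervals. No p-value is given, since each group has 1 library. A 3' UMI count is not scaled by gene length. Ratios were given for genes with at least 50 UMIs over both libraries. Named genes are the 10 members, then from each list those past 2-fold (up to 6) and the one nearest to 0, and the 8 most alike by each correlation. Immune genes, the leading genes of clusters and the genes given as examples of a list were named outside that rule, after values were seen. The ratio and interval steps were tested on simulated Poisson counts with known fold changes. These counts lack the uneven spread of UMIs over cells, so the test says nothing on that spread. Alternatives were other classes, gates, cell limits, scaling, weights, depth, doublet and free RNA settings (barcodes under 100 UMIs). Gene positions are from GENCODE M21 (GRCm38) and start windows from RefSeq (GRCm38.p6).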

Additional observations from a re-analysis of the deposited data

Results flagged for a closer look

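The 2 fibroblast clusters differed in direction for 4 genes whose counting intervals lay wholly below 0 in cluster A and wholly above 0 in cluster B. The difference between the clusters in the log2 ratio of antibody over control IgG, as cluster B minus cluster A, was 3.06 for Myl9, 2.78 for Mylk, 2.19 for Tpm2 and 1.11 for Actn1. The difference itself was not tested, since each group has 1 library. Thinned to 3000 UMIs per cell in a single random draw, the ratio of Tpm2 in cluster B was -0.03, while Myl9 (0.65), Mylk (1.22) and Actn1 (0.87) stayed above 0. Over all such draws, the expected share of cluster B cells with a Tpm2 UMI was 5.04% with control IgG and 7.71% with the antibody. Actn1 in cluster B was at 0.30 (-0.16 to 0.78) over all cells without the marker gate, an interval that includes 0. Of its gated cluster B UMIs, 10 cells held 81% with control IgG, and 1 cell held 14 of 68 with the antibody. In cluster A, Mylk was at -0.08 over all cells without the marker gate. After thinning, 4 of 88 control IgG cells and 0 of 52 antibody cells of cluster A had a Mylk UMI, so no ratio is read.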

How the results depend on the processing

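The median log2 ratio of the 10 genes in fibroblasts was -1.01 and lay between -1.05 and -0.90 under 10 of 11 alternatives. It reversed to 0.16 in fibroblasts with no UMI of the other stromal lists, where 2 genes (Acta2 and Tagln) rather than 5 were at least 2-fold lower and Tpm2 was at 0.46. That choice left 42 and 69 cells, of which 2 and 1 were of cluster A, so it leaves out nearly all of cluster A. With 1.5-fold in place of 2-fold, 8 genes counted as lower, beside 5.42% of all genes. Acta2 (-3.26 to -2.32) and Tagln (-3.73 to -2.87) were at least 2-fold lower under all 11 alternatives, Tpm2 under 10, Cnn2 under 5, Myl9 under 3 and Tpm1 under 2. The -3.26 of Acta2 comes from the choice without other stromal UMIs, on the few UMIs given above. Cnn1 was so under all 10 that gave a value, though thinning left 7 and 0 UMIs, with the 0 counted as 3. Mylk was above 0 under all 11. Of alternatives added after the data were seen, the cluster A median of -1.20 became -0.89 without the marker gate, -1.01 as a mean over cells and -0.66 with cells thinned to 3000 UMIs. In the thinned antibody cells Cnn1 and Mylk had 0 UMIs, which were counted as 3, so -0.66 is not a median of measured ratios alone. The cause of the other shifts was not tested. The cluster B median lay between 0.30 and 0.82. No paired analysis was possible because a group is a single pooled library, and for the same reason none could be left out. Depth limits Cnn1, Mylk and all smooth muscle genes in cluster B.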

Other observations

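Some cells reached the fibroblast gate but also carried markers of another class and were used in no comparison, 53 with control IgG and 39 with the antibody. Acta2 was at 540 CPM (719 UMIs) and 167 CPM (151 UMIs) in them, a log2 ratio of -1.69 (-1.95 to -1.43). Tagln had a log2 ratio of -2.39 in the same cells. Of these cells, 23 and 8 lay in cluster A.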
